A study of Gallus gallus with 10 samples.

Results

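Retinoic acid is made from vitamin A in steps. Retinol is taken up into cells, oxidised to retinaldehyde and then to retinoic acid, which binds nuclear receptors on DNA and is removed by enzymes of the CYP26 family. In vertebrate embryos the mesoderm of the trunk makes retinoic acid while CYP26 enzymes clear it from the anterior head, and this contrast patterns the hindbrain and the neural crest. The set described here holds genes for uptake (STRA6), synthesis (ALDH1A2), the reverse step back to retinol (DHRS3), breakdown (CYP26A1 and CYP26C1), intracellular transport (CRABP1) and reception (RARA and RARB). It lists 8 genes, picked by symbol, of which 7 had a row among the 19168 genes of the expression table. CRABP1 had no row under that symbol and is not analysed here.

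The study measured poly(A) RNA by RNA-seq in the cranial neural folds of chick, the dorsal head tissue from which neural crest cells emerge. A group of 5 pools received a control morpholino and another group of 5 pools an NSD3 morpholino. A morpholino is an antisense oligomer that blocks translation or splicing of an RNA, and NSD3 encodes a SET domain histone methyltransferase. Electroporation of both sides of the embryo took place at stage 4 to 5 of the Hamburger-Hamilton series. Both groups received their morpholino at 0.5 mM together with 300 ng/µL of pCS2+myc, a carrier plasmid that the controls therefore carried too, and folds were collected at 5 to 7 somites. Every pool joined the folds of 12 embryos, so the spread between pools is that of separate pooled animals. The labels describe no sorting, so a pool can hold cells with and without morpholino, and they give no strain and do not say how the NSD3 morpholino acts. Levels are FPKM (fragments per kilobase of transcript, which the authors scaled for library size), and a pool's replicate number is used below to name it.

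The tissue label was checked against marker genes. The forebrain and midbrain gene OTX2 averaged 235 ± 33.3 FPKM and the neural crest gene FOXD3 407 ± 183 FPKM in controls (SD, n = 5 each). Of 8 somite and paraxial mesoderm genes, 7 averaged under 1 FPKM over the 10 pools, among them the muscle gene MYOD1 at 0.185 ± 0.124 FPKM in controls, and MEOX1 averaged 4.14 FPKM in controls. NSD3 itself stood between 20.8 and 25.9 FPKM in control pools and between 15.9 and 19.5 FPKM in NSD3 morpholino pools, with no overlap. Its limma adjusted p was 0.055, which missed the threshold of 0.05 used throughout, while the authors' deposited table lists it with an adjusted p of 0.00439. It passed in 2 alternatives, with a filter at a mean of 5 FPKM (limma adjusted p 0.048) and with libraries rescaled to the same total (0.036). Of the 5 controls, pool 4 was the highest for CYP26A1, CYP26C1 and RARA, and pool 5 for STRA6, ALDH1A2 and DHRS3. The 2 pools did not always go together. For DHRS3 pool 4 lay below pool 3 (2.22 against 2.33 FPKM), and for ALDH1A2 below pool 2 (0.424 against 0.449 FPKM). For CYP26A1 pool 5 lay below pool 2 (130 against 134 FPKM). The share of all genes with such an order is not given here. Each tested gene was also fitted without control pools 4 and 5. Leaving out pools that are high in a gene lowers its control mean, so those fits describe how far the values rest on them and are no independent test.

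Of the 7 genes, the breakdown enzymes had by far the most RNA and the synthesis enzyme the least. Averaged over all 10 pools, CYP26C1 stood at 286.8 FPKM, higher than 99.0% of the genes in the table, and CYP26A1 at 129.3 FPKM, higher than 97.6%. STRA6 followed at 37.0 FPKM, RARA at 14.6 FPKM, RARB at 3.88 FPKM and DHRS3 at 2.52 FPKM. ALDH1A2 came last at 0.316 FPKM, higher than only 28.1% of the genes. Every one of the 10 pools had the genes in this order. The ranges of neighbours in the order were separate except for CYP26C1 with CYP26A1 and RARB with DHRS3, where the lowest pool of the former lay below the highest pool of the latter.

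**Figure D1:**
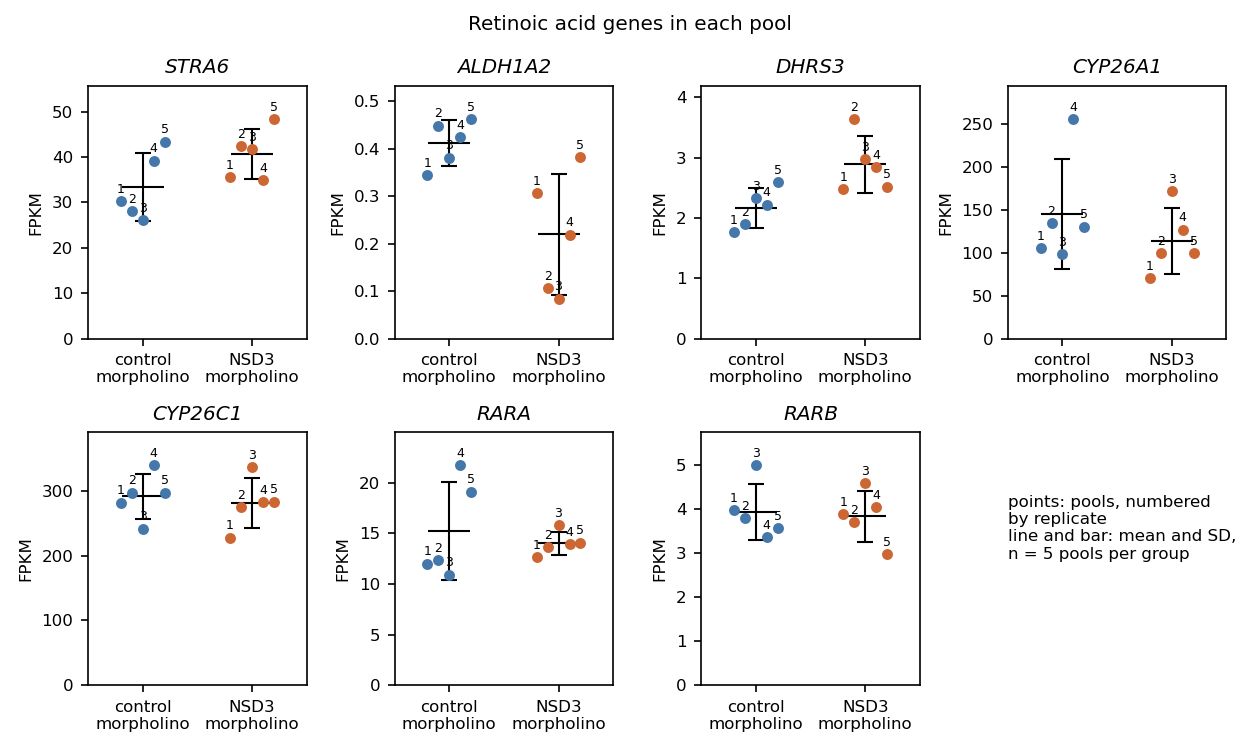
FPKM of the 7 measured genes in each pool, with 1 panel per gene and its own axis from 0; points are pools numbered by replicate, and the line and bar are the mean and SD of 5 pools. The groups overlap in every panel, the 256 FPKM of CYP26A1 in control pool 4 is far above the other controls, and 4 of 5 NSD3 morpholino pools of ALDH1A2 lie below all controls.

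The comparison of NSD3 morpholino with control pools asked whether these genes are among those whose RNA depends on NSD3. None of the genes tested passed. Genes with a mean of at least 1 FPKM over the 10 pools were tested, which took in 6 of the 7 measured genes and left out ALDH1A2. By limma, 0 of the 6 were called higher and 0 lower at an adjusted p under 0.05, where 2.52% of all 11935 tested genes were called. At an unadjusted p under 0.05 there was 1 of the 6, DHRS3, against 18.1% of all tested genes. The groups were free of overlap for 0 of the 6, against 6.04% of all tested genes. The median log2 fold change of the 6 was -0.04, beside -0.003 over all tested genes, with 2 positive and 4 negative values. The authors' deposited table of 674 genes lists 0 of the 7.

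Uptake was represented by STRA6, the membrane receptor that takes retinol from its plasma carrier protein RBP4. In control pools 1 to 5 it stood at 30.2, 28.1, 26.2, 39.2 and 43.4 FPKM, and in NSD3 morpholino pools 1 to 5 at 35.6, 42.4, 41.8, 34.9 and 48.4 FPKM. The first 3 control pools lay below all NSD3 morpholino pools, while control pools 4 and 5 lay among them. Group means were 33.4 ± 7.49 and 40.6 ± 5.54 FPKM (SD, n = 5 each). The fitted log2 fold change was 0.29 (SE 0.143, 95% interval -0.02 to 0.61), at a limma adjusted p of 0.303. Without control pools 4 and 5 it was 0.51 (SE 0.106, 95% interval 0.28 to 0.75) with an adjusted p of 0.0326, where 2.87% of all genes were called. These were the highest control pools of STRA6 itself, so leaving them out had to raise the value, and the call is not counted as a result. With all pools kept, or any single pool left out, STRA6 was not called, and its adjusted p there ran down to 0.143.

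Because 0.5 was added to every FPKM before the log2, fold changes of low genes are understated. The plasma carrier gene RBP4, the partner of STRA6, was listed at 0 in all 5 NSD3 morpholino pools and in control pools 2 to 5. Its control mean of 0.041 FPKM came from control pool 1 alone, at 0.205 FPKM. LRAT, the enzyme that stores retinol as an ester, averaged 1.34 ± 0.405 FPKM in control pools and 1.99 ± 0.392 FPKM in NSD3 morpholino pools (log2 fold change 0.45, limma adjusted p 0.228). RBP5, an intracellular retinol binding protein, was far more abundant and averaged 68.1 ± 9.59 and 66.1 ± 4.06 FPKM (log2 fold change -0.04, limma adjusted p 0.879). Among the 9 uptake and storage genes in the table, 3 were tested and 0 were called.

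ALDH1A2 encodes the retinaldehyde dehydrogenase that makes retinoic acid in early mesoderm. It stood at 0.344, 0.449, 0.381, 0.424 and 0.463 FPKM in control pools 1 to 5 and at 0.307, 0.106, 0.084, 0.219 and 0.383 FPKM in NSD3 morpholino pools 1 to 5. All but NSD3 morpholino pool 5 lay below every control pool, and pools 2 and 3 were the lowest. These are very low levels. Genes of the authors' deposited table had a median of 28.0 mean counts per FPKM (5th to 95th percentile 11.6 to 71.1), and at the median ratio the lowest and highest ALDH1A2 values would be about 2.35 and 13.0 counts. ALDH1A2 was below the filter and entered only the fit without a filter, where its log2 fold change was -0.36 (95% interval -0.62 to -0.10) with an unadjusted p of 0.0111 and a limma adjusted p of 0.185. With a pseudocount of 0.1 in place of 0.5 in that fit, its log2 fold change was -0.77 and its adjusted p 0.242. In bulk tissue, fewer cells that express a gene and less of its RNA per cell cannot be told apart.

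DHRS3 encodes a reductase that turns retinaldehyde back into retinol, the step opposite to synthesis. It stood at 1.77, 1.90, 2.33, 2.22 and 2.59 FPKM in control pools 1 to 5 and at 2.48, 3.64, 2.97, 2.84 and 2.52 FPKM in NSD3 morpholino pools 1 to 5. Of the NSD3 morpholino pools, 3 lay above every control pool, and the other 2 were passed only by control pool 5. Group means were 2.16 ± 0.331 and 2.89 ± 0.470 FPKM (SD, n = 5 each). The log2 fold change was 0.35 (SE 0.134, 95% interval 0.06 to 0.64), the largest of the 6 in size, with an unadjusted p of 0.0229 and a limma adjusted p of 0.198. It kept this direction in all 19 alternative fits that included it, between 0.27 and 0.44, and its adjusted p never fell below 0.140.

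Other synthesis genes were compared beside these. ALDH1A1, another retinaldehyde dehydrogenase gene, averaged 0.0048 FPKM in control pools and ALDH1A3, of the same family, 1.95 ± 0.340 FPKM. ALDH1A3 therefore had the highest level of the 3 dehydrogenases in these folds, and it averaged 1.82 ± 0.446 FPKM in NSD3 morpholino pools (log2 fold change -0.09, limma adjusted p 0.822). CYP1B1, a cytochrome P450 that can make retinoic acid in chick embryos by another route, averaged 2.67 ± 0.670 and 3.62 ± 0.891 FPKM (log2 fold change 0.38, limma adjusted p 0.293). RDH10, which oxidises retinol to retinaldehyde, averaged 2.87 ± 0.706 and 3.25 ± 0.275 FPKM (log2 fold change 0.18, limma adjusted p 0.572). Of 7 tested genes in the synthesis list, which also holds DHRS3 with its reverse step, 0 were called, 6 had positive values and 1 negative. Without control pools 4 and 5 there were 4 positive and 3 negative values, and RDH10 stood at 0.00. ALDH1A1, ALDH1A3, CRABP2, RBP4, the HOX genes and the marker genes of cell types were named after their values were seen.

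Marker sums of several cell types were compared between the groups. The summed level of the 6 head mesoderm genes in the table ran from 12.7 to 18.7 FPKM in control pools and from 21.0 to 33.8 FPKM in NSD3 morpholino pools, with no overlap. Of its 3 tested genes, FOXC2 was called higher and the other 2 were not. The summed somite and paraxial mesoderm genes ran from 5.05 to 7.07 and from 4.69 to 6.91 FPKM and overlapped. Neural crest markers summed to between 636 and 1239 FPKM in control pools and between 405 and 672 FPKM in NSD3 morpholino pools. These ranges overlapped. The 1239 FPKM was control pool 5 alone, and the other control sums ran up to 807.5 FPKM. FOXD3 stood at 731 FPKM in that pool and was not called (log2 fold change -0.71, limma adjusted p 0.133). Forebrain markers summed to between 380 and 478 and between 365 and 417 FPKM. Surface ectoderm markers ran from 224 to 291 and from 267 to 302 FPKM. Endoderm and notochord markers ran from 22.6 to 34.2 and from 19.3 to 26.9 FPKM, and blood and endothelium markers from 3.94 to 6.52 and from 4.82 to 11.9 FPKM. Each of these sums overlapped between the groups, and 0 of the tested genes in them were called. Most of the surface ectoderm sum was EPCAM, with a control mean of 219 FPKM. Most of the endoderm and notochord sum was NOTO, with a control mean of 24.1 FPKM. SOX17, FOXA1, FOXA2 and SHH each averaged under 1 FPKM in controls, so that sum mainly followed NOTO. Of 6 tested neural crest genes 2 were called lower, SOX9 (log2 fold change -0.95, limma adjusted p 0.0333) and TFAP2B (-0.66, 0.0141). All 6 had negative values, with a median log2 fold change of -0.68. Of 6 midbrain-hindbrain boundary genes 1 was called lower, EN1 (-1.07, 0.0192), while 5 had negative values and 1 a positive one, with a median of -0.47. Their sums ran from 65.2 to 121 FPKM in control pools and from 50.4 to 79.6 FPKM in NSD3 morpholino pools, and overlapped. Over all 11935 tested genes, 2.52% were called, and 6.04% taken singly had groups without overlap. Across NSD3 morpholino pools 1 to 5 the head mesoderm sum was 33.8, 27.6, 29.9, 22.9 and 21.0 FPKM. The part of these cells in the levels of DHRS3, STRA6 and ALDH1A2 was not tested.

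CYP26A1 and CYP26C1 encode cytochrome P450 enzymes that oxidise retinoic acid, and in the RefSeq gene table of assembly GRCg7b they are neighbours, with no protein-coding gene between them. CYP26A1 stood at 105, 134, 98.4, 256 and 130 FPKM in control pools 1 to 5 and at 70.7, 99.7, 172, 127 and 99.2 FPKM in NSD3 morpholino pools 1 to 5. Control pool 4 was the highest, and NSD3 morpholino pool 1 was the lowest of all. The spread was wide, with group means of 145 ± 64.0 and 114 ± 38.2 FPKM and coefficients of variation of 44.2% and 33.6%. The log2 fold change was -0.32 (SE 0.268, 95% interval -0.90 to 0.26), at a limma adjusted p of 0.575. Without control pool 4 it was -0.09, with an adjusted p of 0.892.

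CYP26C1 was steadier. It stood at 283, 298, 242, 340 and 298 FPKM in control pools 1 to 5 and at 228, 275, 337, 283 and 284 FPKM in NSD3 morpholino pools 1 to 5. Of the NSD3 morpholino pools, 4 fell within the control range and pool 1 just below it. Coefficients of variation were 12.1% and 13.8%. The log2 fold change was -0.06 (SE 0.106, 95% interval -0.29 to 0.18), at a limma adjusted p of 0.833.

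The pools that were high for one CYP26 gene were high for the other. Over the 10 pools, Pearson's r of their log2 levels was 0.90 and Spearman's rho 0.92, given as a description over pools that include both groups. CYP26C1 exceeded CYP26A1 in every pool, by 2.28 times at the median of controls (range 1.33 to 2.68) and 2.76 times at the median of NSD3 morpholino pools (range 1.96 to 3.23). The lowest ratio was that of control pool 4. The genes on the outer sides of the pair, CEP55 and EXOC6, averaged 10.5 ± 3.11 and 28.9 ± 3.21 FPKM in control pools and stood at 8.54 and 30.3 FPKM in control pool 4, within 1 SD of their means. The third family member, CYP26B1, averaged 0.211 ± 0.144 FPKM in control pools and 0.172 ± 0.114 FPKM in NSD3 morpholino pools.

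**Figure D2:**
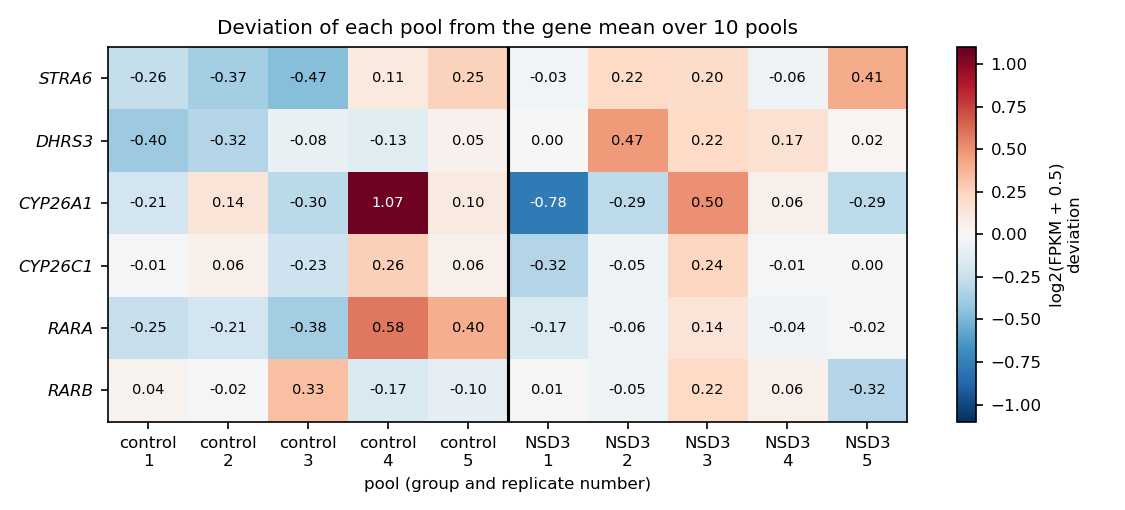
Deviation of each pool from the gene's mean over the 10 pools, in log2(FPKM + 0.5), for the 6 tested genes (red higher, blue lower, the line parts control from NSD3 morpholino pools). CYP26A1 and CYP26C1 share their highs in control pool 4 and NSD3 morpholino pool 3 and their low in NSD3 morpholino pool 1, and RARA is highest in control pools 4 and 5.

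Among carriers, the cellular retinoic acid binding protein gene CRABP2 averaged 490.5 ± 78.0 FPKM in control pools and 471 ± 39.4 FPKM in NSD3 morpholino pools (log2 fold change -0.05, limma adjusted p 0.850). FABP5, a fatty acid binding protein that in mouse can also carry retinoic acid, was the 1 gene of the whole pathway list that rose. It stood at 25.3, 25.0, 26.0, 22.1 and 22.0 FPKM in control pools 1 to 5 and at 28.2, 34.6, 36.0, 35.4 and 30.9 FPKM in NSD3 morpholino pools 1 to 5. All 5 NSD3 morpholino pools lay above all control pools. Its log2 fold change was 0.44 (SE 0.0842) at a limma adjusted p of 0.0192, and the authors' deposited table gives 0.45 and 0.000294. The call was lost without NSD3 morpholino pool 2 (adjusted p 0.0636), pool 3 (0.0531) or pool 4 (0.0614), and without control pools 4 and 5 (0.0505), with log2 fold changes between 0.36 and 0.43.

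RARA and RARB encode nuclear receptors that bind retinoic acid, and RARB is itself a classic gene induced by it. RARA stood at 12.0, 12.4, 10.9, 21.7 and 19.1 FPKM in control pools 1 to 5 and at 12.7, 13.7, 15.8, 13.9 and 14.1 FPKM in NSD3 morpholino pools 1 to 5. The controls formed a low trio, pools 1 to 3, and a high pair, pools 4 and 5, and all 5 NSD3 morpholino pools lay between them. Group means were 15.2 ± 4.87 and 14.0 ± 1.14 FPKM (SD, n = 5 each). The log2 fold change was -0.06 (SE 0.173, 95% interval -0.44 to 0.31), at a limma adjusted p of 0.889. Its sign turned without control pool 4 (0.07) or pool 5 (0.03), and without both it was 0.24 with an adjusted p of 0.154.

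RARB was lower in level and did not share this pattern. It stood at 3.97, 3.78, 4.98, 3.36 and 3.56 FPKM in control pools 1 to 5 and at 3.87, 3.70, 4.58, 4.04 and 2.97 FPKM in NSD3 morpholino pools 1 to 5. Control pool 3 was the highest and NSD3 morpholino pool 5 the lowest, and the groups overlapped throughout. The log2 fold change was -0.03 (SE 0.131, 95% interval -0.32 to 0.25), at a limma adjusted p of 0.930. The ratio of RARA to RARB was between 2.19 and 3.27 in control pools 1 to 3, 6.47 and 5.38 in control pools 4 and 5, and between 3.27 and 4.74 in the NSD3 morpholino pools.

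Control pools 4 and 5 also had the highest summed levels among controls of the hindbrain markers, at 18.3 and 24.5 FPKM against 6.78 to 12.2 FPKM in control pools 1 to 3. They were also the highest controls for forebrain markers, at 428 and 478 FPKM against 380 to 386 FPKM, and for midbrain-hindbrain boundary markers, at 96.6 and 121 FPKM against 65.2 to 77.4 FPKM. In NSD3 morpholino pools 1 to 5 the hindbrain sum was 5.26, 28.0, 14.6, 7.68 and 14.2 FPKM, while RARA ran from 12.7 to 15.8 FPKM there. The part of these tissues in the RARA and STRA6 levels of control pools 4 and 5 was not tested. Nor was their part in the CYP26A1 level of control pool 4.

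Other receptors and their cofactors mostly had negative values, none past the threshold. NCOA1, a coactivator of nuclear receptors, averaged 8.58 ± 2.24 FPKM in control pools and 5.94 ± 0.904 FPKM in NSD3 morpholino pools (log2 fold change -0.47, limma adjusted p 0.156). In the authors' deposited table NCOA1 has a log2 fold change of -0.53, at an adjusted p of 0.0406. Its control pools 4 and 5 stood at 11.1 and 10.9 FPKM against 6.18 to 7.52 FPKM in the others, and without them the log2 fold change was -0.22. RXRG, a retinoid X receptor that pairs with the retinoic acid receptors, averaged 4.82 ± 0.818 and 3.48 ± 0.825 FPKM (log2 fold change -0.43, limma adjusted p 0.175). RARG, the third retinoic acid receptor gene, averaged 14.0 ± 2.35 and 11.6 ± 0.769 FPKM (log2 fold change -0.24, limma adjusted p 0.269). Of 10 tested genes of this role, 0 were called, 9 had negative values and 1 positive. Their summed level was 101 and 97.9 FPKM in control pools 4 and 5, against 72.0 to 77.8 FPKM in control pools 1 to 3 and 71.4 to 78.7 FPKM in NSD3 morpholino pools. Without control pools 4 and 5 the median log2 fold change of the role was -0.06 in place of -0.16, with 7 negative and 3 positive values. In that fit RARG stood at -0.10, while RXRG changed little, at -0.38 in place of -0.43.

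Genes known to respond to retinoic acid were examined as a readout of the pathway. RARRES1, a retinoic acid responsive gene first described in human skin cultures, averaged 5.24 ± 0.785 FPKM in control pools and 6.73 ± 0.749 FPKM in NSD3 morpholino pools. Its lowest NSD3 morpholino pool, at 6.033 FPKM, was just above its highest control pool, at 6.031 FPKM. The log2 fold change was 0.34 at a limma adjusted p of 0.151. The homeobox gene MEIS2 averaged 21.5 ± 3.37 and 26.4 ± 2.17 FPKM (log2 fold change 0.30, limma adjusted p 0.176) and MEIS1 12.2 ± 1.94 and 14.1 ± 2.44 FPKM (log2 fold change 0.20, limma adjusted p 0.479). Of 25 response genes in the table, 11 were tested and 0 were called. Their values were 7 positive and 4 negative, with a median log2 fold change of 0.07. Without control pools 4 and 5 there were 10 positive and 1 negative, the median was 0.2, and 0 were called.

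The HOX genes of that list mark the hindbrain and trunk and were low and uneven. Of 10 in the table, 3 passed the filter and the other 7 averaged at most 0.189 FPKM in either group. HOXA2 ran from 1.14 to 8.44 FPKM in control pools and from 1.13 to 10.8 FPKM in NSD3 morpholino pools, so the groups overlapped. Its log2 fold change was -0.05 with an SE of 0.601, the widest of the list.

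Over the whole pathway list of 68 genes, 60 were in the table and 35 were tested, of which 1 rose, 0 fell and 34 did not pass. This is 1 of 35 at a background of 2.52%. At an unadjusted p under 0.05 there were 9 of the 35, at a background of 18.1%. The median log2 fold change of the list was -0.03, with 17 positive and 18 negative values.

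**Figure D3:**
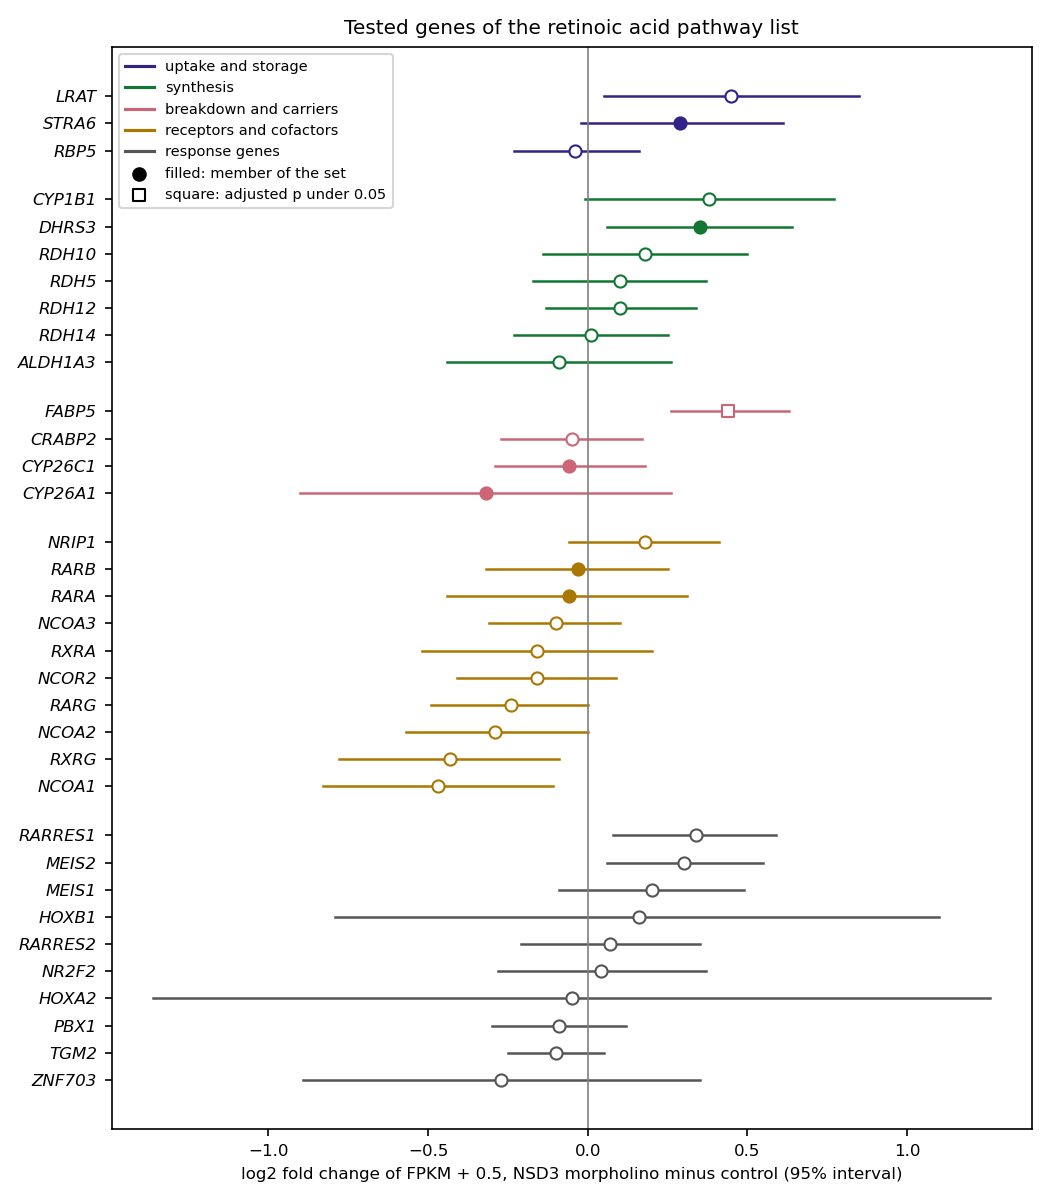
Log2 fold change of FPKM + 0.5, NSD3 morpholino minus control, with the 95% interval from limma for 34 of the 35 tested genes of the pathway list, grouped by role in color. Filled symbols are members of the described set and the square is FABP5, the 1 gene past the threshold, at 0.44; CYP26A1 has the widest interval of the members, -0.90 to 0.26.

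The genes whose levels across the 10 pools were most like each member were picked by the highest Pearson's r of log2(FPKM + 0.5), as a description. For CYP26A1 these were MAGI3 (r 0.957, Spearman's rho 0.927), INSRR (0.955, 0.927) and FMNL3 (0.939, 0.927). FMNL3 was also the closest to CYP26C1 (0.945, 0.915), followed by ST6GALNAC2 (0.919, 0.964) and TMEM106C (0.919, 0.915). For RARA they were GALK1 (0.968, 0.939), NIBAN2 (0.963, 0.964) and ANKRD9 (0.959, 0.879). GALK1 was, like RARA, high in control pool 4, at 30.1 FPKM against a control mean of 24.8 ± 4.99 FPKM, and the highest other pool reached 30.4 FPKM.

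STRA6 was closest to PFKL (0.974, 0.976), LMF2 (0.951, 0.939) and BCL2L1 (0.948, 0.879). DHRS3 was closest to RPN1 (0.969, 0.952), ARCN1 (0.968, 0.988) and PDGFA (0.951, 0.915). RARB was closest to CLK1 (0.915, 0.903), TUBE1 (0.912, 0.758) and TULP3 (0.911, 0.879). Each of these was picked as the highest among the tested genes with a symbol, over only 10 pools, and none of these genes was called between groups. Among the members themselves, r with RARA was 0.75 for CYP26A1, 0.71 for CYP26C1 and 0.63 for STRA6, and -0.46 for RARB.

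**Figure D4:**
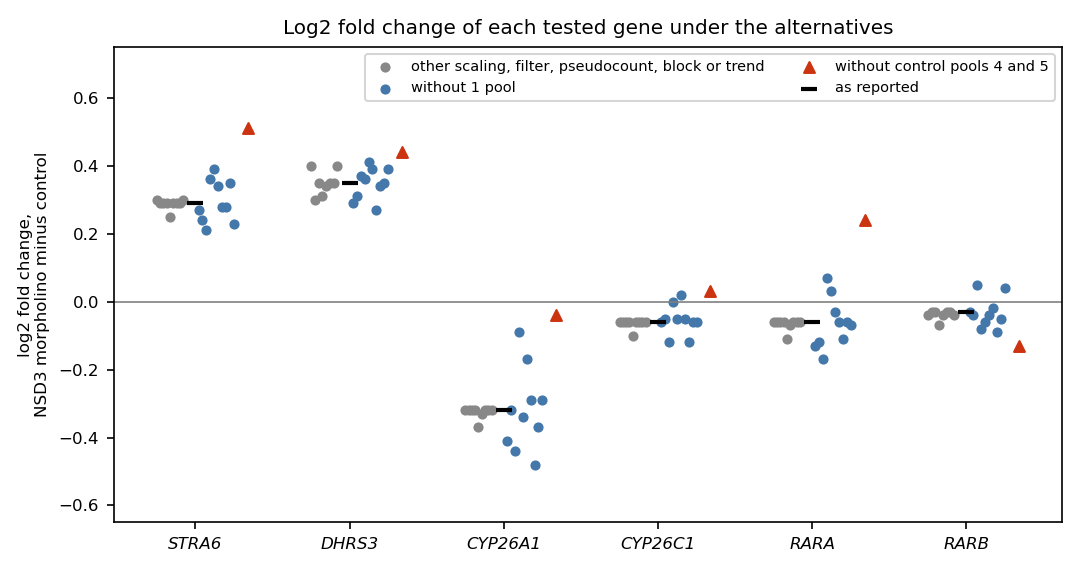
Log2 fold change of the 6 tested genes, NSD3 morpholino minus control, as reported (black line) and under other scaling, filter, pseudocount, block or trend (grey), without 1 pool (blue) and without control pools 4 and 5 (red triangle). STRA6 and DHRS3 stay above 0 in all of them and CYP26A1 below 0, while RARA moves from -0.06 to 0.24 without control pools 4 and 5.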

How the data were processed

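The authors deposited FPKM for 19168 genes in 10 libraries, and a comparison table (674 genes) of log2 fold changes, adjusted p-values and mean counts. The submitters' processing notes name Trimmomatic 0.32, STAR 2.5.3a, DESeq2 1.28.1 and the build GRCg6a. With the counting tool and strand setting not given in the sources used here, overlapping and antisense genes are uncertain. FPKM totals ran from 492837 to 533199 and genes above 0 from 16238 to 16638; read totals were not used, so counting precision per gene is unknown. Symbols were the Ensembl symbol, else the Uniprot symbol, and the row with the highest mean was taken.

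FPKM are not counts, so limma 3.58.1 in R 4.3.3 was fitted to log2(FPKM + 0.5) over the 11935 genes with a mean of at least 1, with group as the term, a mean-variance trend, two-sided tests and Benjamini-Hochberg adjustment over all of them. In simulated data of 11935 genes for this comparison, 53.0% of changes of 0.5 (log2) and 91.2% of changes of 1 were called. Each simulation changed 200 genes picked at random and drew independent normal noise, so it held no shift shared by pools. These shares are averages over the changed genes and do not give the share for a member, such as CYP26A1 with its SE of 0.268. Tables and plots used Python 3.11.15, pandas 2.3.3 and matplotlib 3.10.9.

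The members, lists and tests were chosen with earlier results of these data known. Named genes are NSD3, the members, the pathway genes called, the 3 with the smallest adjusted p per role, those in the authors' table and the 3 most alike per member. A search of promoters for response elements was planned but not run. Values of some listed genes are not reported here.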

Additional observations from a re-analysis of the deposited data

Results flagged for a closer look

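CYP26A1 in control pool 4, at 256 FPKM, stood apart from its group. The nearest other control was 134 FPKM, and this gap was 0.773 of the range of the 5 controls, past Dixon's 95% critical value of 0.71. Of 14 sets of 5 values examined, 7 genes in 2 groups, this was the only one past that value. About 1 in 20 such sets passes by chance, so 1 of 14 is near the number that chance gives. The same pool was also the highest control for CYP26C1, at 340 FPKM, and for RARA, at 21.7 FPKM. Without it the log2 fold change of CYP26A1 was -0.09 in place of -0.32.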

How the results depend on the processing

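In 20 alternatives, 110 of 119 fits of a member kept its direction and side of the threshold, 8 turned the sign of an uncalled value and 1 passed the threshold. Leaving out control replicates 4 and 5 together gave 1 member called higher (STRA6, 0.51, whose highest controls these were) and log2 fold changes of 0.03 for CYP26C1, 0.24 for RARA and 0.09 for RBP5. Without 1 library at a time, log2 fold changes ran from -0.12 to 0.02 for CYP26C1, -0.17 to 0.07 for RARA, -0.09 to 0.05 for RARB and -0.08 to 0.04 for RBP5, whose signs all turned. The pathway list then had 0 or 1 genes called higher, and the count over all genes ran from 70 to 210 (higher) and from 33 to 151 (lower), the lowest being those without NSD3 morpholino replicate 2, against 179 and 122 with all libraries. The cause was not tested. With libraries rescaled to the same total, which shifted the median by -0.043, the balance turned to 125 higher and 173 lower, and NSD3 passed (adjusted p 0.036), as it did with a filter at 5 FPKM (0.048). With no filter and a pseudocount of 0.1 together, added after the data were seen, 1 pathway gene was called lower, RBP7, at 0.635 ± 0.364 and 0.0486 ± 0.0677 FPKM, named after its values were seen. With the replicate number as a block, 97 genes were higher and 62 lower and no member was called. After each group's mean was subtracted from every gene's log2 level, same-numbered pools correlated between -0.128 and 0.34. The best partner of control pools 2, 3 and 4 had another number. Control pools 1 and 5 matched their own number best (0.214 against 0.041, and 0.34 against 0.002). Since the numbers matched in only some pools, they were not treated as pairs. How far depth limits ALDH1A2 and other genes under 1 FPKM is unknown, since read totals were not used. In no other alternative did a member pass the threshold.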
